A study of Mus musculus with 12 samples.

Results

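In vitro affinity sequencing of unmethylated DNA gave 14694 regions at which the fusion of maltose-binding protein with full-length ZBTB43 (MBP-ZBTB43) captured more mouse DNA than maltose-binding protein (MBP) alone. All 14694 rows of the peak list made from unmethylated DNA were taken, out of 190469 in the 2 lists of the study, and 14554 of them lay on autosomes. The DNA came from TKO ES cells, a male mouse embryonic stem cell line of genotype Dnmt1-/-Dnmt3a-/-Dnmt3b-/-, grown from 1 clone, which lacks the enzymes that write and maintain CpG methylation. Sonicated DNA was mixed with bead-bound MBP-ZBTB43 or with bead-bound MBP, with 2 libraries each, so both groups share the DNA and differ in the bait. Another list of 175775 peaks was made the same way on lung DNA of C57BL/6N males methylated with the bacterial enzyme M.SssI. It is used below only for counts set beside those of a gene, stretch or chromosome. The duplicates were pooled before peaks were called, so that the values of the list carry no replicate error and no test between samples was made from it. Values of single libraries were not analysed here. Each peak carries a score of 10 times the −log10 q-value from the MACS2 peak caller, which orders sites within this list. The list has no read counts, and the depth behind a site is unknown. Intervals are Wilson 95% intervals of shares and cover counting error only.

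ZBTB43 belongs to the ZBTB family of zinc-finger transcription factors. In runs in which purines and pyrimidines alternate, such as CA repeats, the double helix can turn into the left-handed Z form. A run of at least 12 bp of this kind, other than of A and T alone, is called an alternating tract here, and one of at least 24 bp a long tract. Such repeats are common in mouse introns and between genes, which makes the length of a gene and its store of tracts the natural scale for its peaks.

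The sites with the highest scores were mostly not long unbroken repeats. The following stretches of 120 bases come from 9 of the 10 peaks with the highest scores and are the stretches of each peak that best repeat themselves. They are shown because most of them set short alternating runs in a longer repeating unit. Sequences were read from the forward strand of GRCm38 (mm10), and capitals mark alternating runs of at least 6 bases. Separate runs that adjoin, as at Itpr1, are printed without a break between them.
Eml1, chr12:108404628-108404747: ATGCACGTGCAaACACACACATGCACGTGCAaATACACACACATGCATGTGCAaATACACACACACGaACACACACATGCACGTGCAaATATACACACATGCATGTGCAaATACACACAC
Ptpro intron 12, chr6:137406505-137406624: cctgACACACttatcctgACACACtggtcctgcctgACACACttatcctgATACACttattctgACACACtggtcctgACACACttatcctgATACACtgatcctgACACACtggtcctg
Prmt3 intron 15, chr7:49853309-49853428: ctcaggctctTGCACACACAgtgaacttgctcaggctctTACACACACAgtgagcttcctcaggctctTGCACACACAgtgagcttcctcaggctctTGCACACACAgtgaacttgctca
Chromosome 4, outside coding genes, chr4:150848160-150848279: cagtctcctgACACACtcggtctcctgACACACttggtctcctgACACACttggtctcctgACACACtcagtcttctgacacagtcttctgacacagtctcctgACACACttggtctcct
Chromosome 9, outside coding genes, chr9:122515675-122515794: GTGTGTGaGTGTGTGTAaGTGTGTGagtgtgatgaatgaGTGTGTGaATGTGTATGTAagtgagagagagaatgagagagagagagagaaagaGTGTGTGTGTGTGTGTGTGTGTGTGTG
Chromosome 8, outside coding genes, chr8:124348623-124348742: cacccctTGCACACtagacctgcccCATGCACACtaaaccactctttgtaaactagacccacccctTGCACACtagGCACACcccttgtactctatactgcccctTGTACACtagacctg
Slc41a2 intron 8, chr10:83260256-83260375: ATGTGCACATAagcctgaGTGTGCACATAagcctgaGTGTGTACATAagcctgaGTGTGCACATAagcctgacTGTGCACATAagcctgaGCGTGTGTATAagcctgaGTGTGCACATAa
Ptpn4 intron 1, chr1:119820566-119820685: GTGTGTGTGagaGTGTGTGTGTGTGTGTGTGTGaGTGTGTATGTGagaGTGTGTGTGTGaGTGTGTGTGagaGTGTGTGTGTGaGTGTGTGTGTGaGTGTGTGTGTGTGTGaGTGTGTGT
Itpr1 intron 49, chr6:108485648-108485767: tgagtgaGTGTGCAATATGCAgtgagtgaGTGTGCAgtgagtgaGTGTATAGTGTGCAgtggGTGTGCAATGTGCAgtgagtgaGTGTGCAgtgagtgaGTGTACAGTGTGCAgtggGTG

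At Prmt3, a gene for a protein arginine methyltransferase, a unit of 29 bp was repeated with 93.3% of bases equal to the base 1 unit further on, and each unit held 1 run such as TGCACACACA. At Itpr1, which encodes an inositol trisphosphate receptor of the endoplasmic reticulum, the period was 55 bp at 94.2% identity. At Slc41a2, a magnesium transporter gene, it was 18 bp at 85.8%, and at Ptpn4, a tyrosine phosphatase gene, 12 bp at 90.0%. The remaining stretches matched themselves less well, at 79.2% for a period of 14 bp in Ptpro, a receptor tyrosine phosphatase gene, 76.7% for 56 bp in Eml1, a microtubule-binding protein gene, and 75% at the sites outside coding genes, where the period was 17 bp on chromosome 4, 4 bp on chromosome 9 and 59 bp on chromosome 8. Of these 9 peaks, 5 held no alternating tract of 12 bp at all. Eml1 held the most, and 15 tracts covered 336 of its 573 bp and the longest reached 77 bp.

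Across the whole list, broken CA runs and repeat periods of 7 bp or more were more frequent at high scores. Short alternating runs were frequent at both ends of the list, as given below. The hexamer CACACT, a CA run broken by a T, was counted on both strands, with AGTGTG as its other strand, because an inspection of the highest peaks had shown it. It is therefore a description and not a test. In the highest of 10 equal parts of the list, with scores of 1377 to 4234, there were 2.00 copies per 100 bp, against 1.30 in the part after it and 0.599 in the lowest part. At least 5 copies were held by 74.8% of peaks in the highest part (95% interval 72.5 to 76.9%) and by 5.31% in the lowest (4.27 to 6.57%). Peaks of the highest part were also wider, with a median of 493 bp against 178.5 bp, which the rate per 100 bp takes into account. Among all windows of 252 bp tiled along the autosomes, 0.0609% held 5 copies, and among the 2838 TKO peaks within 25 bp of that width, 10.9% did.

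A best repeat period of 7 bp or more was found in 63.2% of peaks in the highest part (60.7 to 65.6%) and in 26.4% (24.2 to 28.7%) of those in the lowest, with the smallest share, 22.7%, in the ninth. The period is that of the best 120 bp of a peak, or of fewer bases where a peak was too narrow for that. Wider peaks also offer more such stretches. The part of width in this difference was not tested. The longest alternating tract went the other way at the top of the list. Its median was 38 bp in the highest part, 50 bp in the middle parts with scores of 192 to 434, and 23 bp among the 100 highest peaks. Alternating runs of 6 to 11 bp numbered 2.22 per 100 bp in the highest part, 1.52 in the seventh and 2.05 in the lowest. Their density thus did not set the highest peaks apart from the lowest as the hexamer did. CpG density varied less than that of the hexamer, with 1.21 CpGs per 100 bp in the highest part, 1.10 in the ninth and 0.774 in the lowest.

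**Figure D1:**
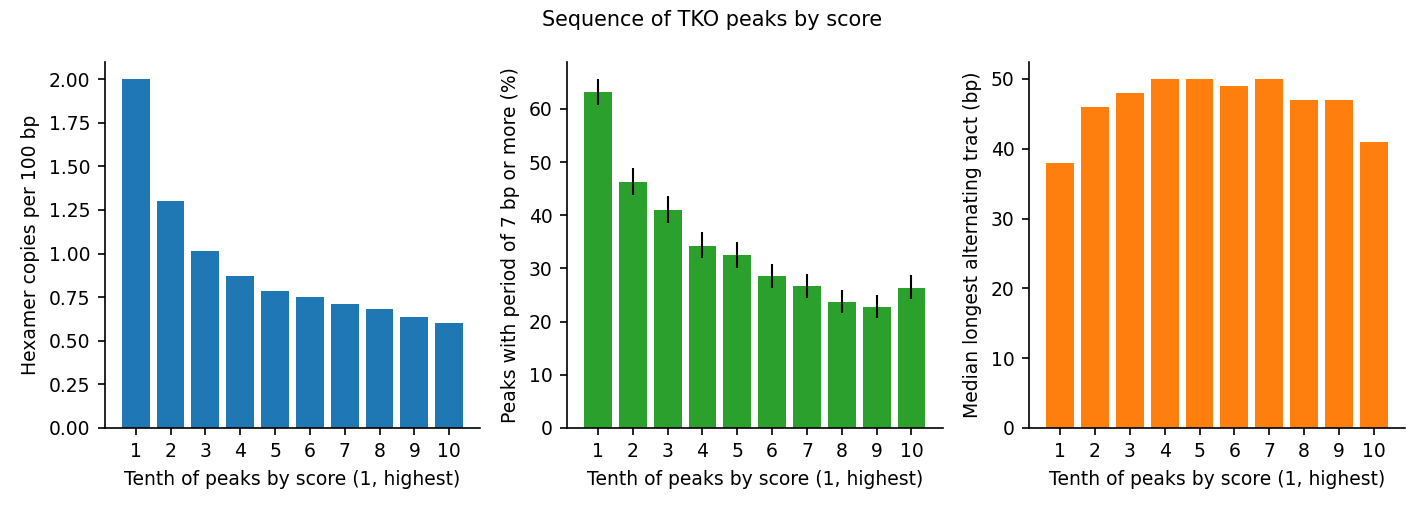
Sequence of TKO peaks in 10 equal parts of the list by score, from 1 (highest) to 10 (lowest). Left, copies of the hexamer described in the text per 100 bp on both strands, which fall from 2.00 to 0.599; middle, the percentage of peaks with a best repeat period of 7 bp or more, with Wilson 95% intervals as error bars, from 63.2% at the top; right, the median longest alternating tract, which is shorter at both ends (38 and 41 bp) than in the middle.

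Pcnx2, the densest in peaks of all genes of at least 100 kb, held sites of high and of low score within 1 gene. Pcnx2 encodes a membrane protein of the pecanex family. The longest tract of each of its 3 highest and 3 lowest peaks is given with up to 10 bases on either side, the tract in capitals, on the forward strand of GRCm38.
Pcnx2 intron 21, score 2562, chr8:125810718-125810759: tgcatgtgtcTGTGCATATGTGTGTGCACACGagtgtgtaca
Pcnx2 intron 9, score 1845, chr8:125865149-125865190: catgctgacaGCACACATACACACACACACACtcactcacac
Pcnx2 intron 17, score 1226, chr8:125833925-125833989: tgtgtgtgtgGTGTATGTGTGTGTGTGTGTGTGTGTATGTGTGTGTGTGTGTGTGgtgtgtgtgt
Pcnx2 intron 15, score 82, chr8:125843102-125843167: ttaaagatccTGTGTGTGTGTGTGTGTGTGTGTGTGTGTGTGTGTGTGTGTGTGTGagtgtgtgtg
Pcnx2 intron 21, score 80, chr8:125809391-125809474: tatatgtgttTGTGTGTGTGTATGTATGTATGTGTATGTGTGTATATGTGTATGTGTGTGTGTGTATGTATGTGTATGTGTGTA
Pcnx2 intron 12, score 71, chr8:125859841-125859938: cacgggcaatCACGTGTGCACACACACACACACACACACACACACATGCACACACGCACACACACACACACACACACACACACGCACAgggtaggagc

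The 3 highest peaks of Pcnx2 had longest tracts of 22, 22 and 45 bp, and the 3 lowest had tracts of 46, 74 and 78 bp. The peak with the highest score, 2562, was 513 bp wide and held 13 tracts of at least 12 bp and 10 CpGs. The peak with the lowest score, 71, was 166 bp wide and held 2 tracts and 4 CpGs. The counts are thus from peaks of unlike width. The longer tract of the lowest peak was the longest under any of the 12 peaks of Pcnx2. In the other 6 peaks, with scores of 1077, 999, 468, 213, 132 and 102, the longest tracts were 41, 16, 23, 18, 27 and 63 bp. Score and longest tract thus did not run strictly against each other in this gene.

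Peaks fell in a minority of genes. Of 20807 autosomal protein-coding genes in the GENCODE M21 annotation, 3585 held the midpoint of at least 1 peak, or 17.2%. These genes took in 6457 autosomal peaks, 44.4% of them. The share rose with gene length, from 3.59% of genes under 20 kb (3.26 to 3.95%) to 33.5% of genes of 50 to 100 kb (31.6 to 35.4%) and 94.5% of the 218 genes of at least 500 kb (90.6 to 96.8%). The rate per length changed much less. Summed over the genes of a length class, it was 0.459 peaks per 100 kb under 20 kb, 0.745 at 100 to 200 kb and 0.612 at 500 kb or more, against 0.65 over all coding genes and 0.608 per 100 kb of known autosomal sequence.

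Among the 2372 genes of at least 100 kb, 1560 had a peak, or 65.8%. The median was 0.551 peaks per 100 kb, the upper quartile 0.978 and the 99th percentile 3.73. Peaks numbered 1 in 645 of these genes, 2 to 4 in 689, at least 5 in 226 and at least 10 in 31.

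Pcnx2, on chromosome 8 from 125751508 to 125898317, led them with 12 peaks in 147 kb, or 8.17 per 100 kb, 12 times the rate of 0.682 summed over all genes of this size. The 12 peaks lay in 8 introns between 9.86 and 123.9 kb from the start of the gene, and their scores, in order from that start, were 1077, 102, 1845, 132, 71, 999, 468, 82, 1226, 2562, 80 and 213, with a median of 340.5. High and low sites were mixed along the gene. Grk3, which encodes a kinase that phosphorylates activated G-protein-coupled receptors, held 7 peaks in 105 kb on chromosome 5 (112910482 to 113015791), or 6.65 per 100 kb. Of these, 4 lay in intron 1 with scores of 40 to 659, and the highest, 1699, lay in intron 13. Myom1, the gene of the sarcomere protein myomesin 1, held 8 peaks at 6.44 per 100 kb on chromosome 17 (71002633 to 71126856). They were spread over the gene, with 1 peak each in 7 introns of the transcript used and 1 outside it.

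Myrip, whose product links Rab27a-bearing vesicles to myosin, held 10 peaks at 5.77 per 100 kb on chromosome 9 (120301513 to 120474841). Its scores had a median of 170.5, near the 192 of the whole list, and a highest value of 652. Of the 10 densest genes, Fli1 (610) and Amotl1 (434) also had none above that. Adgrd1, an adhesion G-protein-coupled receptor gene, held 6 peaks at 5.56 per 100 kb on chromosome 5 (129096750 to 129204599), in introns 14, 15 and 19, with 2 in each. The next genes were 2900026A02Rik (7 peaks, 5.19 per 100 kb), Kpna7 (5 peaks, 4.98), Fli1 (6 peaks, 4.97), Cd109 (5 peaks, 4.97) and Amotl1 (5 peaks, 4.85). Fli1 encodes an ETS transcription factor, Cd109 a membrane-anchored co-receptor of the TGF-β pathway, Kpna7 an importin and Amotl1 an angiomotin-family protein of cell junctions. The gene ranked after these 10 had 4.79 peaks per 100 kb, so the order of the lower places turns on single peaks. All 5 peaks of Kpna7 lay outside the transcript used for introns, and its gene record overlaps 3 other coding genes. In the 10 genes, 1 peak, in Amotl1, had its midpoint in an exon, exon 13 of the transcript used.

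**Figure D2:**
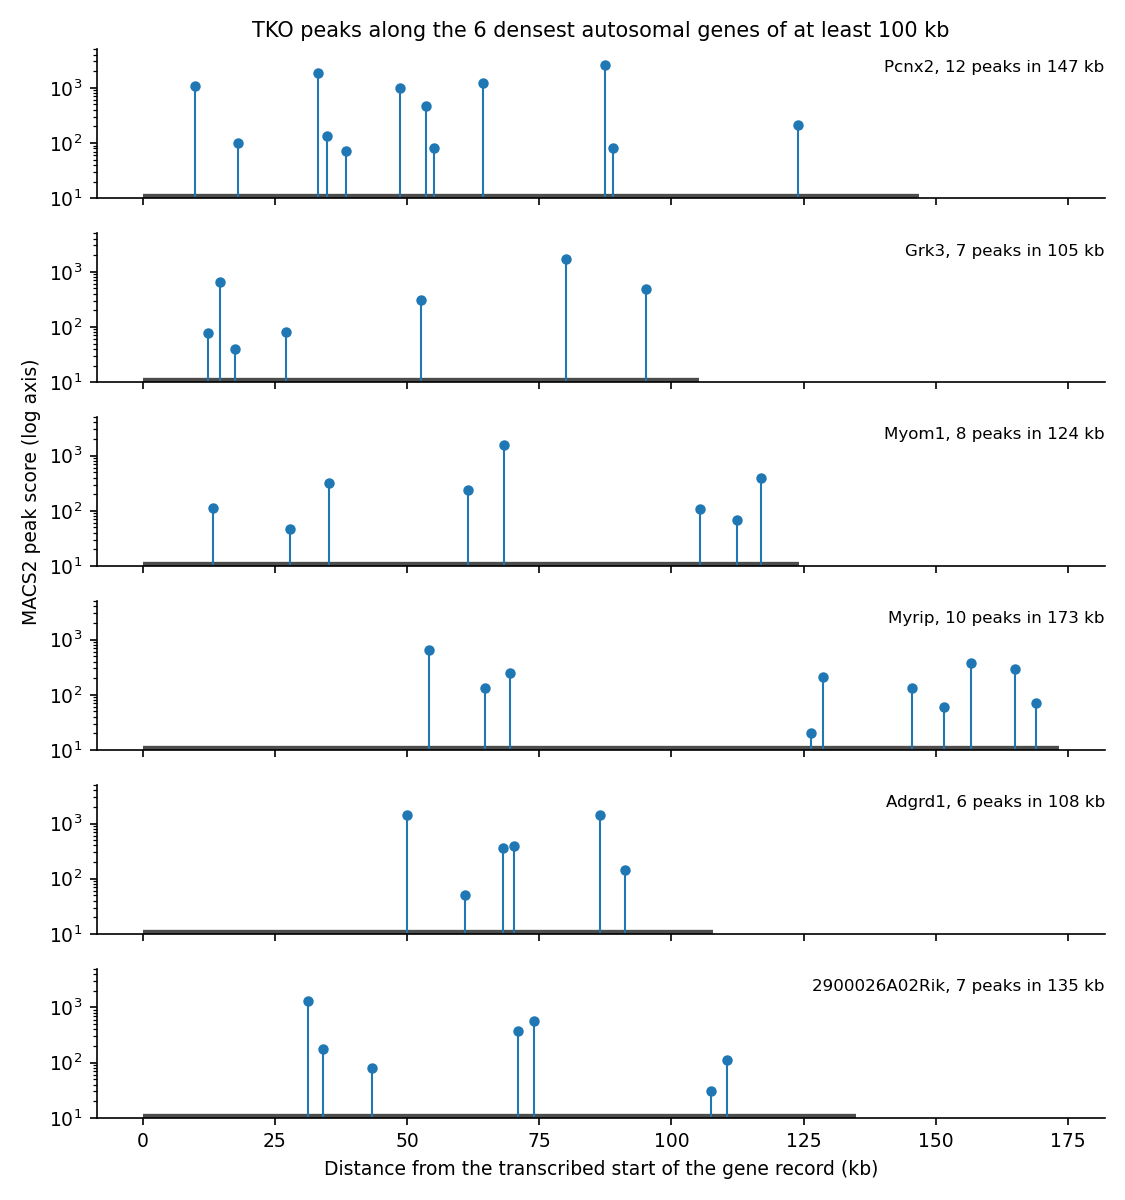
TKO peaks along the 6 autosomal genes of at least 100 kb with the most peaks per 100 kb. Horizontal axis, distance from the transcribed start of the gene record in kb (the dark bar is the gene); vertical axis, MACS2 peak score on a log axis; each point is 1 peak. In Pcnx2 scores from 71 to 2562 are mixed along the gene, while no peak of Myrip passes 652.

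The 10 densest genes were rich in long tracts. They held 24.9 to 66.5 long tracts per 100 kb, against a median of 17.9 over genes of at least 100 kb, and their GC content ran from 41.1 to 53.1% against a median of 42.5%. A larger share of their long tracts also lay under a peak, which means that tract and peak shared at least 1 bp. Between 15.2% (Amotl1) and 41.5% (Adgrd1) of their long tracts lay under a peak, whereas over all autosomal coding genes 12255 of 179197 did, or 6.84% (6.72 to 6.96%). The last share counts a measure that a gene with many peaks tends to have by construction, and is given as a description. Across the 2372 genes, peaks per 100 kb went with long tracts per 100 kb (Pearson's r 0.56, Spearman's coefficient 0.51) and with GC content (0.37 for both). These are correlations across genes of 1 pooled capture, which share their libraries and overlap in base composition.

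GC content went with the number of tracts and with the share of them under a peak. In the fifth of these genes with the lowest GC content, 34.8 to 39.5%, there were 16.4 long tracts per 100 kb, 4.30% of them under a peak, and 0.346 peaks per 100 kb. In the fifth with the highest, 45.9 to 55.1%, there were 23.7 tracts per 100 kb, 10.1% of them under a peak, and 1.24 peaks per 100 kb. The part of sequencing and library preparation in this relation was not tested, since the coverage of the input DNA was not analysed here.

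Some genes with many tracts had almost none under a peak. Disc1, a scaffold protein gene studied in psychiatric genetics, lies 489.6 kb from Pcnx2 on chromosome 8 (125054195 to 125261858), with a GC content of 48.06% against 48.15% in Pcnx2 and 55.4 long tracts per 100 kb against 54.5. Of its 115 long tracts 0 lay under a TKO peak, whereas 18 of 80 did in Pcnx2. The SssI list had 38 peaks in Disc1 and 35 in Pcnx2, so both genes held sites that the protein captured from the other DNA. Sfmbt2, a Polycomb-group gene, had more long tracts per 100 kb (75.6) than any other gene of at least 100 kb and was named for that after its values were seen. It held 1 TKO peak, and 3 of its 170 long tracts lay under it.

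Of 1890 genes of at least 100 kb with at least 20 long tracts, 568 had 0 under a peak. Those with the most tracts among them were Disc1, Adgrv1 (105 tracts), Ebf1 (103) and Slc7a11 (101), followed by Zfp804b, whose single peak of score 333 covered none of its 100 long tracts. Adgrv1 encodes a very large adhesion receptor of inner-ear hair cells, Ebf1 a B-cell transcription factor and Slc7a11 the cystine transporter of the glutathione pathway. At the other end stood Gpatch2 (24 of 39 long tracts under 3 peaks, 61.5%), Plekhh2 (21 of 40, 52.5%), Mertk, the gene of a receptor kinase for the uptake of dying cells (15 of 32, 46.9%), Lin28b (11 of 26, 42.3%) and Adgrd1 (17 of 41, 41.5%). In Lin28b, which encodes an RNA-binding protein that blocks let-7 maturation, 1 peak of score 310 covered all 11, so a high share need not mean many peaks.

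**Figure D3:**
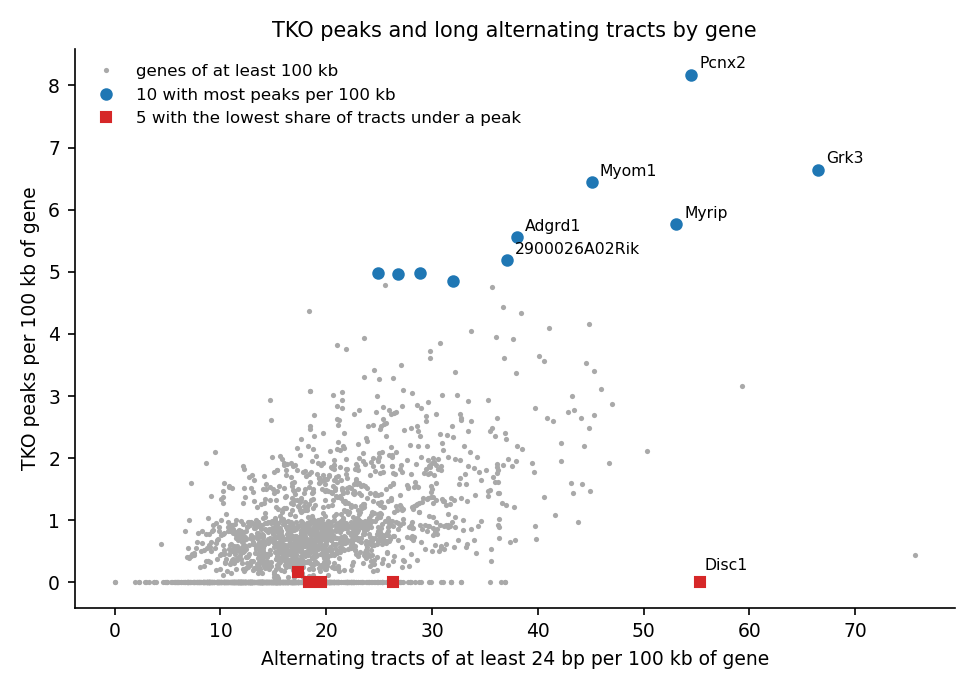
Each point is 1 of the 2372 autosomal genes of at least 100 kb. Horizontal axis, long alternating tracts (at least 24 bp) per 100 kb; vertical axis, TKO peaks per 100 kb; blue, the 10 genes with the most peaks per 100 kb; red squares, the 5 genes with the most long tracts among the 568 that had 0 of at least 20 under a peak. Pcnx2 and Disc1 sit at almost the same tract density, 54.5 and 55.4, with 8.17 and 0 peaks per 100 kb.

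By number of peaks the order was set by very long genes. Rbms3, an RNA-binding protein gene of over 1 Mb on chromosome 9 (116572746 to 117629913), held 28 peaks at 2.65 per 100 kb, with scores of 33 to 2258. Cdh13, the gene of the membrane-anchored T-cadherin, held 24 peaks on chromosome 8 at 2.31 per 100 kb, none above a score of 840. Camta1, a calmodulin-binding transcription activator gene, held 23 peaks on chromosome 4, and 20 of them lay in introns 3 and 5, with 10 in each. These genes were long and dense at once, each with over 3 times the summed rate.

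Sox5, a SoxD transcription factor gene, held 19 peaks, and Tshz2, a teashirt zinc-finger gene, 18. Tshz2 had the highest density of any gene of at least 200 kb, 4.10 per 100 kb, with a best score of 2681. Over the span of its principal transcript this density fell to 2.499 per 100 kb, under the 2.814 of Rbms3 over its own. Pde4d, a cAMP phosphodiesterase gene, Rbfox1, a splicing regulator gene, and Cntnap2, a neurexin-family gene, each held 14 peaks, in 1503514, 1526172 and 2244857 bp. Their rates were 0.931, 0.917 and 0.624 per 100 kb. The rate was 0.65 over all coding genes and 0.612 over those of at least 500 kb, so only Cntnap2 was near them. Of the long tracts of these 3 genes 5.22 to 7.72% lay under a peak, against 6.84% over all coding genes.

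Several entries in that order rested on the extent of the gene record. Gm20388, with 79 peaks, is a record of 4434882 bp on chromosome 8 that overlaps 73 other coding genes, and all its peaks lay in its intron 1. Fgfr2, a fibroblast growth factor receptor gene, had 26 peaks over a record of 2960900 bp that overlaps 30 other coding genes, and 0 in the 102483 bp span of its principal transcript. A peak in overlapping genes was counted in each of them. When the span of 1 transcript per gene was used instead, a choice made after seeing the data, Sox5 kept 6 peaks, Tshz2 7, Rbfox1 4 and Rbms3 19, while Cdh13 and Camta1 kept all of theirs.

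Of 2677 autosomal introns of at least 50 kb, 1144 held a peak, or 42.7%, and 29 held at least 5. Intron 1 of Sez6l, a brain membrane protein gene, had the highest density in the transcripts used, with 7 peaks in 101185 bp on chromosome 5 (112475587 to 112576771), or 6.92 per 100 kb, and scores of 65 to 3386. Of its 46 long tracts, 18 lay under a peak. Intron 1 of Wscd2 followed with 4 peaks in 59482 bp, 6.73 per 100 kb, all with scores of at least 335 and a median of 1657. Both introns held sites of high score. With introns taken between the merged exons of all transcripts, an intron of Camta1 came first at 7.61 per 100 kb, ahead of that of Sez6l.

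Intron 3 of Rbfox3, which encodes the neuronal splicing factor NeuN, had 6.62 peaks per 100 kb, intron 1 of 2900026A02Rik 6.51, intron 5 of Camta1 6.13 and intron 5 of Cdh13 6.03. Intron 5 of Camta1 is the longest of the 10 densest, at 163 kb with 10 peaks. The remaining introns of the 10 were intron 2 of Eif4g3 (5.86), intron 3 of Cacna1a (5.75), intron 1 of Eya2 (5.75) and intron 2 of Palm2 (5.75), with 3 or 4 peaks each. Their genes encode a translation initiation factor, the pore of P/Q-type calcium channels, a transcriptional coactivator and a paralemmin-family protein. The intron ranked eleventh had 5.73, so this order too turns on single peaks.

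Peaks were shared among introns much as bases were. First introns held 24.6% of intron bases, 25.0% of long tracts and 24.7% of intron peaks (23.6 to 25.8%). Last introns held 7.09% of bases, 6.85% of long tracts and 7.13% of peaks (6.502 to 7.805%). The share of long tracts under a peak differed somewhat more, at 6.61% (6.37 to 6.85%) in first introns and 7.59% (7.11 to 8.09%) in last introns. In 5366 peaks within genes of 1 strand, the longest tract read as CA rather than TG on the sense strand in 45.2% (43.9 to 46.6%), against 45.6% of the 174125 long tracts of such genes with an excess of either.

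Most long genes without a TKO peak had SssI peaks, at a lower rate than the others. Of 953 genes of at least 200 kb, 765 had a TKO peak, or 80.3%, and 188 had none. Of the 188, 2 also had no SssI peak, and the median was 14 SssI peaks. Summed over genes, there were 5.32 SssI peaks per 100 kb in these 188 and 8.12 in the 765. The longest was Sntg1, a syntrophin gene of 938404 bp on chromosome 1 (8361475 to 9299878), with 82 long tracts and 20 SssI peaks. Exoc4, an exocyst subunit gene of 724895 bp, had 94 tracts and 30 SssI peaks, and Fgf14, the gene of an intracellular sodium-channel regulator, 95 and 27 in 699221 bp. None of these tracts lay under a TKO peak.

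After these came A830018L16Rik, Vps13b, Slc7a11, Adgrv1, Ptprk, Skint5 and Gmds, of 519162 to 561797 bp. They include genes of a lipid transfer protein (Vps13b), a receptor tyrosine phosphatase (Ptprk) and an enzyme of GDP-fucose synthesis (Gmds). Skint5, of an immunoglobulin-domain family in skin and thymus, stood apart with 26 long tracts and 9 SssI peaks, against 54 to 105 tracts and 13 to 32 SssI peaks in the other 6. The records of Slc7a11 and Fgf14 are longer than their principal transcripts, of 78674 and 214612 bp, and their places rest on the record. As a group the 188 genes had a median of 14.4 long tracts per 100 kb (quartiles 11.6 and 17.8) and a GC content of 40.3%, whereas the 765 genes with a peak had 19.45 tracts (15.9 and 23.7) and 41.9%. They were also shorter, with a median of 265 kb against 349 kb. The share of genes without a peak therefore moves with length, tract content and GC content together, and these were not separated.

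Neighbouring peaks on autosomes lay a median of 82.9 kb apart, with quartiles of 30.03 and 201 kb and a mean of 163.8 kb. The closest pair was 217 bp apart. A neighbour within 1 kb was found for 2.71% of peaks (2.46 to 2.98%), within 10 kb for 19.8% (19.1 to 20.4%), within 20 kb for 32.1% (31.4 to 32.9%) and within 100 kb for 76.6% (75.9 to 77.3%).

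**Figure D4:**
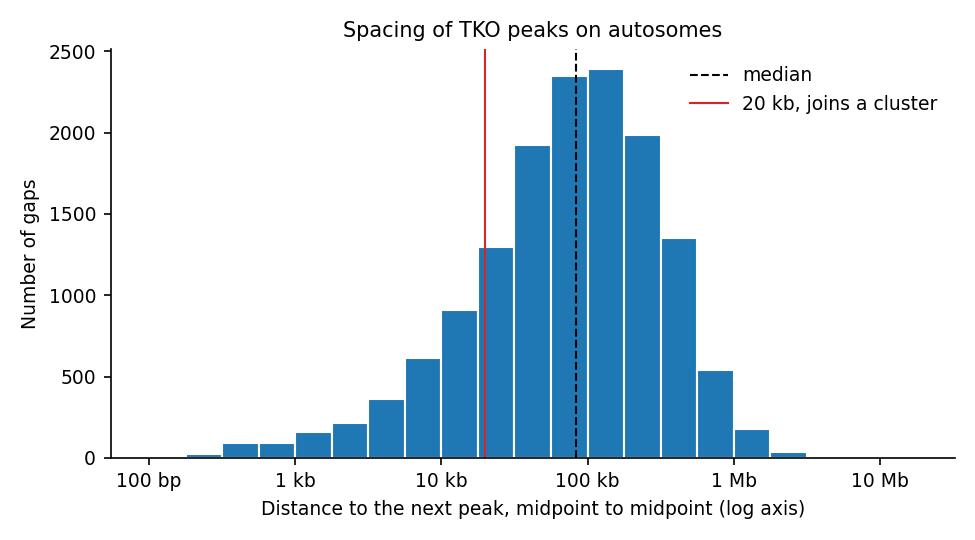
Distances between neighbouring TKO peaks on autosomes, midpoint to midpoint, on a log axis in bins of equal width on that axis; the height is the number of the 14535 gaps in a bin. The dashed line is the median of 82.9 kb and the red line the 20 kb used to join peaks into clusters; the distribution has a single maximum near 100 kb and a long tail towards short gaps.

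Runs of at least 4 peaks with gaps of at most 20 kb formed 133 clusters on autosomes, with 628 peaks, 4.32% of the autosomal ones. Of these clusters 80 had 4 peaks, 28 had 5 and 25 had at least 6, and 67 overlapped a coding gene. Of single autosomal peaks, 44.4% had their midpoint in a coding gene. Stretches as wide as clusters were not examined for this, so the 67 are a count only. The cluster with the most peaks, 12 in 81.8 kb on chromosome 8 (125833708 to 125915454), covered part of Pcnx2 and reached Map3k21, a kinase gene. It was followed by 3 clusters of 8 peaks, over Cx3cr1, the fractalkine receptor gene (chromosome 9, 120042129 to 120090481), over Myrip (chromosome 9, 120427868 to 120476473) and over Tshz2 (chromosome 2, 169926678 to 170010934). Scores within a cluster varied widely, from 72 to 2681 over Tshz2 and from 20 to 372 over Myrip.

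Of the 6 clusters with 7 peaks, the tightest packed them into 12.6 kb outside coding genes on chromosome 3 (149050807 to 149063388), and the others lay in Gm20388 (2 clusters), Ulk4, Camta1 and Ppp1r13b. Peaks in clusters had a median score of 223.5 (quartiles 87.75 and 685.8), against 192 (88 and 547) for the others. Clusters were dense in long tracts, with 53.9 per 100 kb, and 1181 of 2388, or 49.5%, lay under a peak. A cluster is chosen for its peaks, so this share is high by construction.

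Several of the dense genes were neighbours. In windows of 1 Mb on autosomes with at least 90% known bases, the median was 5 peaks (quartiles 3 and 8), 105 of 2376 windows had 0, and 44 had at least 20. The window with the most, 39, lay on chromosome 9 from 120000001 and held the Cx3cr1 and Myrip clusters. Chromosome 2 from 169000001, with Tshz2, had 37, and 2 adjoining windows on chromosome 5 from 112000001 had 36 and 31 and held Sez6l, Grk3, 2900026A02Rik and Wscd2. A window on chromosome 5 from 119000001, with the heart and limb regulators Tbx3 and Tbx5, had 34. Across windows the number of peaks went with the number of long tracts (Spearman's coefficient 0.71) and with GC content (0.61), again within 1 pooled capture.

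The 3 longest stretches without a peak lay over large receptor gene families. A stretch of 9282 kb on chromosome 7 (6926029 to 16208052) had 121 coding genes, 53 of them vomeronasal receptor genes, with 688 long tracts and 187 SssI peaks. One of 5005193 bp on chromosome 17 (36192004 to 41197196) held 49 olfactory receptor genes, and one of 4010591 bp on chromosome 7 (19922798 to 23933388) held 61 vomeronasal receptor genes. These 3 stretches held 688, 477 and 333 long tracts in 9232024, 5005193 and 3960591 known bases. Autosomes pooled held 177.6 long tracts per Mb, so all 3 stretches were poor in them. Other long stretches had few genes, such as 3379722 bp on chromosome 15 (47925425 to 51305146) with Trps1 alone. How well reads could be placed in these regions was not tested, nor was the part of their tract content.

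Per megabase of known sequence, autosomes held from 4.80 peaks (chromosome 7) to 7.87 (chromosome 8), 6.08 when pooled. The X chromosome held 0.807, or 132 peaks, and the Y chromosome 0.0908, or 8 peaks. On X 1.18% of long tracts lay under a peak (1.04 to 1.34%), against 6.60% on autosomes (6.53 to 6.68%). The gap was smaller in the SssI list, also from male DNA. It had 39.4 peaks per Mb on X, against 63.3 (chromosome 3) to 78.7 (chromosome 5) on autosomes. A male cell has 1 copy of X, and the part of copy number in this gap was not tested. Genes of X and Y were left out of the rankings for that reason.

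Gene lists chosen by symbol were set beside all coding genes. Over all coding genes 17.2% held a peak, and 65.8% of those of at least 100 kb, so the count of members with a peak is to be read with their length. The rate per 100 kb (0.65 over all genes) and the share of long tracts under a peak (6.84% over all genes) are given with it. None of these values has a test. Members with equal numbers of peaks were ordered by density. Phosphodiesterases, which break down cyclic nucleotides, had the highest rate, 1.12 per 100 kb, with 14 of 25 genes (56%) holding a peak and 10.3% of long tracts under one. Pde4d (14 peaks) and Pde10a (11) had the most. This rate is summed over the list. By gene the median was 0.601 per 100 kb, against 0.821 in voltage-gated calcium channels and 0.59 in collagens. Collagens followed with 23 of 42 genes (54.8%), 0.929 per 100 kb and 8.36% of long tracts under a peak, led by Col26a1 and Col19a1 with 5 peaks each. The 12 genes that bind Z-DNA or act on DNA topology and mismatches had 4 with a peak (33.3%), 0.897 per 100 kb and 6 of 53 long tracts under a peak, or 11.3%, led by Msh3 (2 peaks) and Adar (1). With 5 peaks in all, these values rest on few sites.

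Voltage-gated calcium channels had 16 of 25 genes (64%) with a peak at 0.845 per 100 kb and 8.80% of long tracts under one, with Cacna1d (7) and Cacna1e (5) first. Solute carriers had 90 of 348 (25.9%) at 0.776 and 7.81% of tracts, with Slc44a5 (6) and Slc38a9 (5) first. Cadherins and protocadherins had 54 of 95 (56.8%) at 0.773 and 7.39% of tracts, with Cdh13 (24) and Cdh4 (13) first. Myosins and kinesins had 26 of 76 (34.2%) at 0.757 and 7.64% of tracts, with Myo16 (7) and Myo3b (6) first. These rates exceeded that of all genes by less than 1.5 times.

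Glutamate receptors had 16 of 25 genes (64%) at 0.714 per 100 kb and 6.13% of tracts, with Grin2a (8) and Grik1 (6) first. Potassium channels had 33 of 91 (36.3%) at 0.704 and 7.36% of tracts, with Kcnj6 (7) and Kcnma1 (6) first. Lower rates than over all genes were found in the lists that follow, except for core histones. ADAM and ADAMTS proteases had 16 of 52 (30.8%) at 0.575 per 100 kb and 5.51% of tracts, with Adamts9 and Adam12 first at 3 each. Axon guidance genes had 28 of 66 (42.4%) at 0.510 and 5.27% of tracts, with Slit3 and Robo1 first at 5 each. Neurexins, neuroligins and contactins had 14 of 18 (77.8%) at 0.480 and 4.81% of tracts, with Cntnap2 first at 14. The last list, with a median gene length of 525.6 kb, had the highest share of genes with a peak and a rate below that of all genes.

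Zinc-finger genes named Zfp had 34 of 383 (8.88%) with a peak at 0.368 per 100 kb and 5.53% of tracts, with Zfp516 (4) and Zfp236 (3) first. Vomeronasal receptors, which detect pheromones, had 12 of 326 (3.68%), each with 1 peak, at 0.230 per 100 kb, and 4.06% of their 517 long tracts lay under a peak. Core histone genes are short, and 2 of 80 (2.5%) held a peak, H3f3a and Hist1h2be, at 0.736 per 100 kb, with 4 of 44 long tracts under one, or 9.09%. The records of these 2 genes span 13112 and 37455 bp, against a median of 0.625 kb over the list. With 2 peaks in all, these values rest on few sites.

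**Figure D5:**
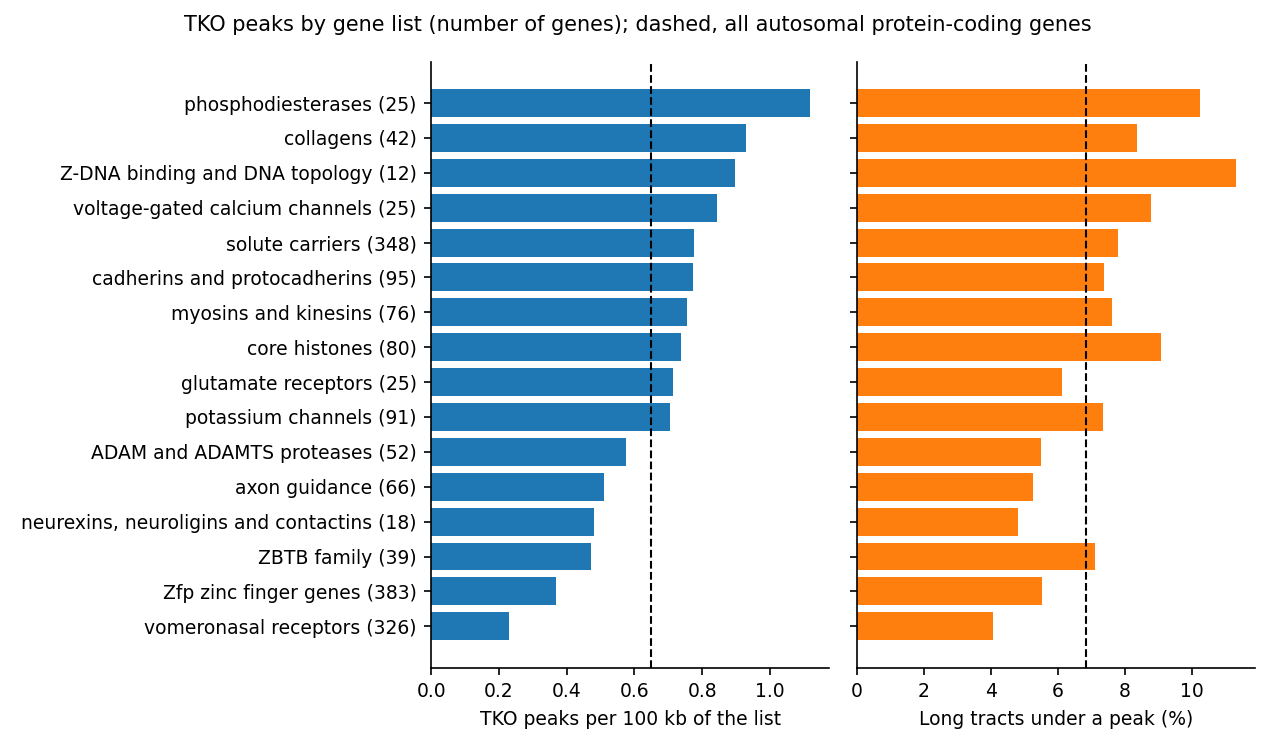
TKO peaks in lists of autosomal genes (number of genes in brackets). Left, peaks per 100 kb summed over the list; right, percentage of long alternating tracts under a peak; dashed lines, all autosomal protein-coding genes (0.65 and 6.84%). Phosphodiesterases have the longest bar on the left (1.12) and vomeronasal receptors the shortest (0.230).

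Within the ZBTB family 5 of 39 genes (12.8%) had a peak, at 0.472 per 100 kb and 7.12% of long tracts, with 4 peaks in Zbtb7c, 2 in Zbtb20 and 2 in Zbtb43 itself. The peaks in Zbtb43, on chromosome 2, lay over its coding sequence. The wider of them (33453597 to 33455206) scored 3077, at rank 52 of the list, was 1610 bp wide and held 45 CpGs and no alternating tract of 12 bp. The narrower (33462164 to 33462455) scored 374. Together they covered all 1512 bases of the coding sequence, which lies in segments from 33453700 to 33455123 and from 33462266 to 33462353, and reached some way beyond each segment at both ends. The SssI list also had peaks over both segments, covering 99.6% of the coding bases. The bait protein was made in E. coli from a cloned Zbtb43 cDNA, and the part of DNA from that clone in these 2 peaks was not tested. They were left in all counts. Of the genes deleted in the TKO cells, Dnmt1 held 1 peak and Dnmt3a and Dnmt3b none.

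Scores ran from 13 to 4234 with a median of 192 and quartiles of 88 and 548. The highest score was shared by the peaks in Eml1 on chromosome 12 (108404446 to 108405018) and in an intron of Arhgap26, a GTPase-activating protein gene, on chromosome 18 (39099120 to 39099728), a site with no alternating tract and a repeat period of 37 bp at 88.3% identity. The others of the highest 10 were in Ptpro (3946), Prmt3 (3941), Slc41a2 (3772), Ptpn4 (3754) and Itpr1 (3750), all in introns, and at 3 sites outside coding genes (3932, 3810 and 3772). The site just below them had a score of 3677. None of these genes was among the 10 densest, and the best peak of the densest gene, Pcnx2, stood at rank 224.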

How the data were processed

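Affinity-seq libraries were made with MBP-ZBTB43 and with MBP on DNA of TKO ES cells, 2 libraries each, out of 12 in the series, and the sperm libraries were not used here. According to the methods and the submitters' processing notes, the authors aligned reads to mm10 with BWA 0.7.17, combined duplicates and called peaks with MACS2 2.2.7.1 at default parameters (q-value under 0.05) against MBP. The score deposited for each peak is its −log10 q-value times 10, without decimals. Score rises with depth as well as capture and was ranked only within the TKO list.

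Peaks were assigned to genes of GENCODE M21 by midpoint and sequence was read from GRCm38. Introns were those of 1 transcript per gene (principal, then most exons, then longest). Genes were named by rank: the 10 with the most peaks and the 10 densest (at least 100 kb), the 10 densest introns (at least 50 kb), clusters with the most peaks, the 10 longest genes without a peak, the 10 highest scores, the 2 leading members of each gene list, and the 5 highest and lowest shares of long tracts under a peak. Members, lists and rules were chosen with earlier results of these data known. The best repeat period of a peak is the period of 2 to 60 bp with the highest self-match over 120 bp. A longer period was taken only where its share of matching bases was higher by over 0.02. Where a peak was too narrow for 120 bp, a shorter stretch was used. Alternatives covered score thresholds (q-value under 0.01 and 1e-05), merging of peaks within 200 bp, introns between merged exons, and cluster, gene, intron and tract limits. Some list members and 1 gene list are not reported here. Counting was tested on simulated data. Python 3.11.15, numpy 2.4.6, pandas 2.3.3 and scipy 1.17.1 were used.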

Additional observations from a re-analysis of the deposited data

How the results depend on the processing

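Of 54 alternative values for 12 results, 39 moved by no more than the 95% interval (shares, medians) or 1.5 times (counts, highest rates), and 15 moved further. With scores of at least 50 (q-value under 1e-05), 16.6% of coding genes had a peak, 30.2% of peaks had a neighbour within 20 kb, the median gap was 89.5 kb, 6.45% of long tracts lay under a peak and the median score was 216, as fewer and stronger peaks remained. After merging within 200 bp 31.2% had such a neighbour, and within 10 kb 19.8% did. Clusters numbered 38 when joined at 10 kb, 508 at 50 kb and 476 with 3 peaks as the minimum. The highest density was 9.60 per 100 kb (Itgb3, 6 peaks) among genes of at least 50 kb, 4.10 (Tshz2) among genes of at least 200 kb, 7.61 (Camta1) among introns between merged exons and 18.9 (4930470P17Rik, 4 peaks) among introns of at least 20 kb. With tracts of at least 16 bp 6.55%, and of at least 36 bp 6.57%, lay under a peak. These summed shares hide a difference between length classes. The share was 4.24% at 12 to 23 bp, 7.21% at 24 to 35 bp, 5.29% at 36 to 59 bp and 8.55% at 60 to 99 bp. Of the 3163 tracts of at least 100 bp, 911 lay under a peak, or 28.8% (27.25 to 30.4%). A longer tract has more bases to share with a peak, and the part of this was not tested. With 1 transcript span per gene, added after seeing the data, 16.3% of genes had a peak, and 7 of the 10 densest genes were the same.

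No paired analysis was possible because the duplicates were pooled before peak calling, and leaving out a replicate was not run for the same reason. Single libraries were not analysed here. The unknown depth limits what the absence of a peak shows. Tract lengths are those of the reference, not of the TKO line.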
